A study of Mus musculus with 38 samples.

Results

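Genes induced by interferon were examined in lung and forestomach of mice dosed orally with dibenz[a,h]anthracene (DBahA), a polycyclic aromatic hydrocarbon. The set was a fixed list of 37 symbols of genes known to be induced by interferon, and 35 of the 37 had a probe among the 20018 genes with a probe on the arrays. Mx1 and Mx2 could not be matched to a probe and are only named. For the 10 members with more than 1 probe, the brightest probe was used.

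Total RNA of each tissue was labelled with Cy5 and hybridised to dual-colour Agilent mouse arrays beside a Cy3-labelled Universal Mouse Reference RNA, a pool from 11 mouse cell lines. Values below are log2(Cy5/Cy3), so a level of 0 is the level of the same gene in the reference pool. The animals were male MutaMouse, a transgenic strain with a lacZ reporter for mutations, about 10 weeks old and gavaged daily for 28 days, with tissue taken 72 h after the last dose. D0 mice received olive oil alone. In the same oil, D1 mice received DBahA at 6.25, D2 mice at 12.5 and D3 mice at 25 mg/kg-bw/day. Lung was measured in 5 D0, 5 D1, 4 D2 and 5 D3 mice, and forestomach in 5 D0, 5 D1, 4 D2 and 4 D3 mice, the last from 5 arrays of which 2 carried mouse number 18 and were averaged. The labels name both as replicates of mouse 18. Whether both came from 1 animal is still uncertain: their glandular stomach marker means were 0.94 and 6.51. Mouse 20, measured in lung at D3, has no forestomach array of its own number. Treated as separate mice, a setting added after the values were seen, they gave 0 calls in forestomach and a median D3 difference of -0.26 over the members. Otherwise a shared mouse number marks lung and forestomach of 1 animal. A probe was called where limma gave a two-sided p of 0.05 or less after Benjamini-Hochberg adjustment over 55681 probes, together with a change of 1.5-fold or more.

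Interferons are secreted proteins that signal infection or tissue damage. Type I and III interferons act through JAK kinases on a complex that holds STAT2 and IRF9 and binds the interferon-stimulated response element (ISRE), while interferon gamma acts at the gamma-activated site (GAS). The genes switched on by them include sensors of foreign nucleic acid, enzymes that stop viral replication and translation, GTPases that attack intracellular pathogens, chemokines and the machinery that loads peptides onto MHC class I, and they are also expressed at a low tonic level in barrier tissues such as lung.

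The promoters of 5 members are shown because the results turn on these genes or because they hold the clearest examples of the elements, read 5′ to 3′ on the strand of each gene from RefSeq (GRCm38.p6). Each window spans 250 bases before to 50 bases after the start, and capitals mark the ISRE core (GAAANNGAAA) or the GAS motif (TTCNNNGAA), both searched on both strands. Bst2 lies at chr8:71537423-71537722 (minus strand), Isg15 at chr4:156200769-156201068 (minus), Oas1a at chr5:120907476-120907775 (minus), Ifi35 at chr11:101448162-101448461 (plus) and Tap1 at chr17:34187306-34187605 (plus).
Bst2: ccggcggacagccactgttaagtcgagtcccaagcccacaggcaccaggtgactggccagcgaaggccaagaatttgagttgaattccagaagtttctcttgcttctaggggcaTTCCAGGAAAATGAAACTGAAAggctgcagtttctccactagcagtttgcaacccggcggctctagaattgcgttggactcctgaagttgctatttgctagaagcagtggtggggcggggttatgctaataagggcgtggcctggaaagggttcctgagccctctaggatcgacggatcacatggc
Isg15: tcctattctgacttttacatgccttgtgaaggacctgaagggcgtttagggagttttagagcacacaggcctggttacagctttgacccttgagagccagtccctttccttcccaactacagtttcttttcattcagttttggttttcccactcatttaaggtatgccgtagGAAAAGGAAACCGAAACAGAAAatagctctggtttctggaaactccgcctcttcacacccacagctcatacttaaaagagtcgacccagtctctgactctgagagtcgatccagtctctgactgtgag
Oas1a: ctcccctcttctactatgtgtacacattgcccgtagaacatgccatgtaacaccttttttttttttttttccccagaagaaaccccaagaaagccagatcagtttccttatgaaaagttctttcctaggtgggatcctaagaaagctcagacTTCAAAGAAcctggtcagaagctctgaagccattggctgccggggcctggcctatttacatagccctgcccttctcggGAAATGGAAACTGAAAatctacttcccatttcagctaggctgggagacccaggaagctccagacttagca
Ifi35: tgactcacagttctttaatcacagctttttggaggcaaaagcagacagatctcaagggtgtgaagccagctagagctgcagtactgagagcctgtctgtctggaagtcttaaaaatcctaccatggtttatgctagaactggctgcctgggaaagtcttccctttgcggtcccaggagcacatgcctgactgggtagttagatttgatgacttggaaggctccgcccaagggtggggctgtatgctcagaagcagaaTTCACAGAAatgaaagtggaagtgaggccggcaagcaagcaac
Tap1: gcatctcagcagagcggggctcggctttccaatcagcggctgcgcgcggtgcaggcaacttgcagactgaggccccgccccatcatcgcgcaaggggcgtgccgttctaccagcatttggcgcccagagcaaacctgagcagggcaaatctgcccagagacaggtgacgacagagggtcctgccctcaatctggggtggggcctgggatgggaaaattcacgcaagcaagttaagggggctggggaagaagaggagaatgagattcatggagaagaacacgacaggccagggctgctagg
In Bst2, 2 overlapping ISRE cores began 130 bases upstream of the start, and the GAS motif overlapped the first of them. In Isg15, 3 overlapping cores began 78 bases upstream, and in Oas1a 2 overlapping cores began 20 bases upstream. Ifi35 held a GAS motif just after its start and no ISRE core, and Tap1 held neither. The Tap1 window shares 275 of its bases with that of Psmb9, which is read from the opposite strand.

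Windows were read for 30 of the 37 members, all but Mx1, Mx2, Oas2, Usp18, Dhx58, Zbp1 and Gbp6. An ISRE core stood in 17 of these 30 windows (56.7%), against 1131 of all 32851 windows of the same length (3.44%). A GAS motif stood in 10 (33.3%, against 8.3% of all windows), and 22 held at least 1 of the motifs (73.3%, against 11.3%). By role, the core was found in all 4 windows of the interferon-inducible GTPases, in both windows of the nucleic acid sensors, in 5 of 9 of the antiviral effectors and in 0 of 3 of the antigen processing genes. Among other interferon-induced genes outside the list, 14 of 35 windows held the core (40%). These are matches of letters, not evidence of binding, and 5 members with more than 1 annotated start were read at the first.

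Lung D0 mouse 1 stood apart from its group. The mean over the 35 members of each value minus the D0 mean of the tissue, here the interferon score, was 0.49 in this mouse and between -0.16 and -0.04 in the other 4 D0 mice. Mouse 1 had the highest D0 value for 27 of the 35 members and lay above the D0 mean for 34. Its mean over 6 macrophage markers was 2.64, the highest in D0 (1.70 to 2.64). Its means over the NK cell (1.54), plasmacytoid dendritic cell (0.74, without Bst2), B cell (0.95) and endothelial markers (4.38) were also the highest of the D0 mice. Those over the T cell (0.42, D0 up to 0.47) and neutrophil markers (2.08, D0 from 1.92 to 2.57) were not. The part of these cells in its score was not tested. Results in lung are therefore given with and without this mouse. It was singled out by its values for these same members, so results without it show only how far they depend on it.

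The lung arrays carried lung epithelial markers (means of 5.39 to 6.81 in lung, 0.30 to 1.53 in forestomach) and the forestomach arrays squamous markers (3.1 to 3.79, against -0.33 to 0.09 in lung). The forestomach arrays fell into 2 separate ranges of glandular stomach markers, 13 high and 6 low. No marker of any cell type list was called at any dose in either tissue. In lung, the mean of 5 neutrophil markers had medians of 2.21 at D0 and 2.84, 2.66 and 2.63 at D1 to D3 (1.92 to 2.57 at D0, 2.12 to 2.73 at D3), and that of 5 fat markers 1.40 at D0 and 0.48, 0.89 and 1.22, all with overlap of the groups. Over the 19 lungs, Pearson's r with the interferon score was 0.23 for the neutrophil and -0.54 for the fat markers, and their part in the members' values was not tested.

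**Figure D1:**
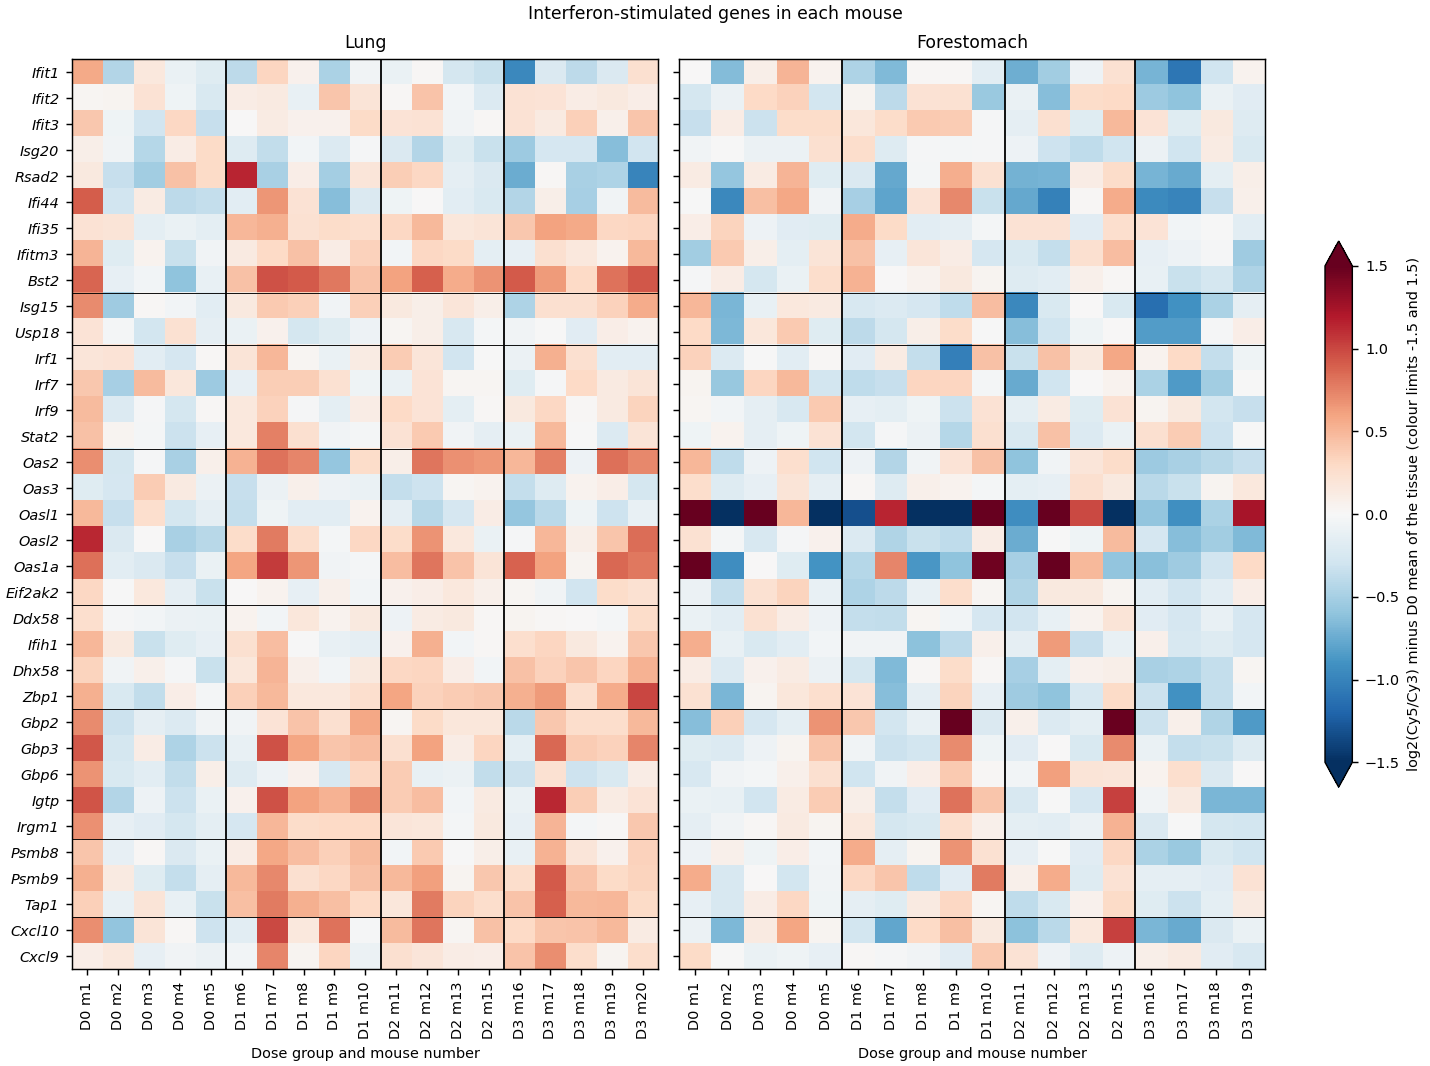
Log2(Cy5/Cy3) of each of the 35 members (rows, grouped by role) minus the D0 mean of the tissue, in each mouse (columns, by dose group) of lung (left) and forestomach (right). Colour runs from -1.5 to 1.5, and the lung column of D0 mouse 1 is high for nearly the whole set.

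The first question was whether DBahA altered these genes in lung. At D3, 1 of the 35 members passed the test, the nucleic acid sensor Zbp1, where 0.639% of all probes did. Most other estimates were positive and small: 27 of the 35 lay above 0 (77.1%, against 49.9% of all probes), with a median log2 fold change of 0.19 against -0.00 over all probes (with median centring of the arrays in place of loess, 34 lay above 0, with a median of 0.56). Most members were bright in lung, while shares of all probes, here and below, include dim ones. A median of 48.8% of probes were well above background on the lung arrays. With loess, the median over the 20644 probes well above background on all lung arrays was 0.006. At an unadjusted p of 0.05, 9 members were higher and 1 was lower, which is 28.6% of the members against 11.3% of all probes. Members varied together among the same mice, so neither these counts nor those below stand for as many separate observations. In whole tissue, a change in the number of cells of a type and a change of RNA per cell cannot be told apart.

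Zbp1 senses left-handed nucleic acid and can start necroptosis. Its lung levels were -0.44, -1.20, -1.33, -0.87 and -1.0 in D0 mice 1 to 5. They were -0.62, -0.48, -0.81, -0.81 and -0.72 in the 5 D1 mice, -0.37, -0.62, -0.59 and -0.57 in the 4 D2 mice, and -0.43, -0.33, -0.71, -0.41 and 0.04 in the 5 D3 mice. All 14 dosed mice lay above the 4 D0 mice other than mouse 1, which overlapped the dosed mice. From D0 to D3 the level rose from -0.97 ± 0.34 (SD, n = 5) to -0.37 ± 0.27 (n = 5), a log2 fold change of 0.60 (SE 0.14, limma adjusted p = 0.0355). The estimates were 0.28 at D1 (adjusted p = 0.778) and 0.43 at D2 (adjusted p = 0.376). The second probe of the gene gave 0.28 at D3 (adjusted p = 0.492), so the call rested on the brighter probe. The call was lost in 8 of 10 limma fits that left out 1 D0 or D3 mouse each (estimates of 0.50 to 0.73, adjusted p from 0.00387 to 0.0999) and held without D0 mouse 1 (0.73) or D3 mouse 18. It was also lost in 5 of 12 other settings (adjusted p up to 0.732). These 12 include the quantile alternative, which leaves log ratios as they are and so could not lose the call. They also include the setting added after the values were seen, without D0 mouse 1 and with slide as a block (limma adjusted p = 0.000819).

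Of the other sensors, Dhx58, a regulator of RIG-I-like receptor signalling, had the next estimate at D3, 0.41 (SE 0.11, adjusted p = 0.0835), with all 5 D3 mice between 0.23 and 0.42. Its D0 mice ranged from -0.44 to 0.23, and mouse 1 was the highest of them. The cytosolic RNA sensors Ddx58 (0.06) and Ifih1 (0.24) had smaller estimates that did not pass.

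Among the antiviral effectors, Ifi35, an interferon-induced leucine zipper protein, was the only member of the 35 whose D3 mice all lay above all D0 mice, where 2.05% of all probes did so. A count of 1 in 35 is near that share. Its levels were 0.80, 0.78, 0.44, 0.49 and 0.44 at D0, 1.08, 1.12, 0.82, 0.86 and 0.84 at D1, 0.90, 1.07, 0.76 and 0.79 at D2, and 0.99, 1.19, 1.16, 0.90 and 0.91 at D3. The D1 mice, too, were all above D0, if narrowly, and the D2 mice overlapped D0. The difference at D3 was 0.44 (SE 0.10, adjusted p = 0.0231), under the fold threshold, so it was not counted as called. Without the fold threshold 2 members passed, Ifi35 and Zbp1, against 1.33% of all probes.

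Bst2 encodes tetherin, which holds budding virus particles on the cell surface, and had the largest estimate at every dose. Its levels at D0 were 0.98 in mouse 1 and -0.02, 0.06, -0.50 and -0.01 in the other 4 mice. They were 0.54, 1.06, 1.02, 0.89 and 0.54 at D1, 0.70, 1.00, 0.66 and 0.77 at D2, and 1.02, 0.74, 0.40, 0.92 and 1.04 at D3. All 14 dosed mice lay above 4 of the 5 D0 mice, and D0 mouse 1 lay among the dosed mice. The estimates of 0.71 at D1 (SE 0.19), 0.68 at D2 (SE 0.20) and 0.72 at D3 (SE 0.19) missed the threshold (adjusted p = 0.292, 0.248 and 0.076 in limma). Without mouse 1 they were 0.93, 0.90 and 0.94, and all passed (adjusted p = 0.00709, 0.0089 and 0.00204). Over the fits that left out 1 mouse, the D3 estimate ran from 0.57 to 0.94 (adjusted p up to 0.204), and it also passed without D3 mouse 18. Bst2 is also 1 of 4 plasmacytoid dendritic cell markers checked, and the mean of the other 3 was 0.34 to 0.74 in D0 lungs and 0.36 to 0.57 in D3 lungs.

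The rest of the antiviral effectors showed no common direction. Isg20, a 3′ exonuclease of viral RNA, had the lowest p of the negative estimates at D3, -0.40 (SE 0.12, adjusted p = 0.109), and also at D2, -0.29. Rsad2, the radical SAM enzyme viperin, had -0.53 (SE 0.26, adjusted p = 0.457). The RNA-binding proteins Ifit1, Ifit2 and Ifit3 had -0.31, 0.16 and 0.24, Ifitm3, which blocks virus entry, 0.16, and Ifi44 -0.09.

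All 3 antigen processing members had positive estimates at each dose, and none passed the test. Tap1, which carries peptides into the endoplasmic reticulum, had levels of -0.10, -0.57, -0.26, -0.58 and -0.80 at D0, -0.01, 0.32, 0.07, -0.01 and -0.16 at D1, -0.28, 0.32, -0.12 and -0.20 at D2, and -0.03, 0.43, 0.03, 0.04 and -0.17 at D3. D0 mouse 1 lay below 4 of the 5 D3 mice, and 13 of the 14 dosed mice lay above the other 4 D0 mice. The estimates at the rising doses were 0.50, 0.39 and 0.52 (adjusted p = 0.0746 at D3), and without mouse 1 the D3 value was 0.61 (adjusted p = 0.0322), a call (adjusted p up to 0.213 without other mice). The immunoproteasome subunits Psmb9 and Psmb8 had 0.45 (SE 0.16, adjusted p = 0.214) and 0.20 (SE 0.13, adjusted p = 0.627) at D3.

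In the 2-5A and PKR group, which senses double-stranded RNA and degrades RNA or halts translation, Oas1a had the largest estimate at D3, 0.64 (SE 0.23, adjusted p = 0.226). Its D0 levels were -1.19 in mouse 1 and -2.36 to -2.11 in the others, and its D3 levels ran from -1.97 to -1.12. Without mouse 1 the difference was 0.84 and passed (adjusted p = 0.0452), although the second Oas1a probe gave 0.21 with all mice (adjusted p = 0.575). Oas2 had 0.54 (adjusted p = 0.393) and Oasl2 0.36, while Oas3 (-0.13) and Oasl1 (-0.30) lay below 0 and Eif2ak2, the kinase PKR, was at 0.04. Oas1a belongs to a cluster of closely related Oas1 genes whose probes can share signal, so its value is uncertain.

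The interferon-inducible GTPases, which act on vacuoles of intracellular pathogens, had D3 estimates from -0.10 (Gbp6) to 0.43 (Gbp3, SE 0.23, adjusted p = 0.511). The second Gbp6 probe had the opposite sign, 0.35 (limma adjusted p = 0.658). The ubiquitin-like Isg15 and its protease Usp18 had 0.19 and -0.01. The transcription factors had 0.07 to 0.19, the largest for Irf9. Of the T cell-attracting chemokines, Cxcl10 had 0.35 (adjusted p = 0.613), and Cxcl9 was well above background on 0 of 5 D0 and 2 of 5 D3 arrays, so no fold is given.

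**Figure D2:**
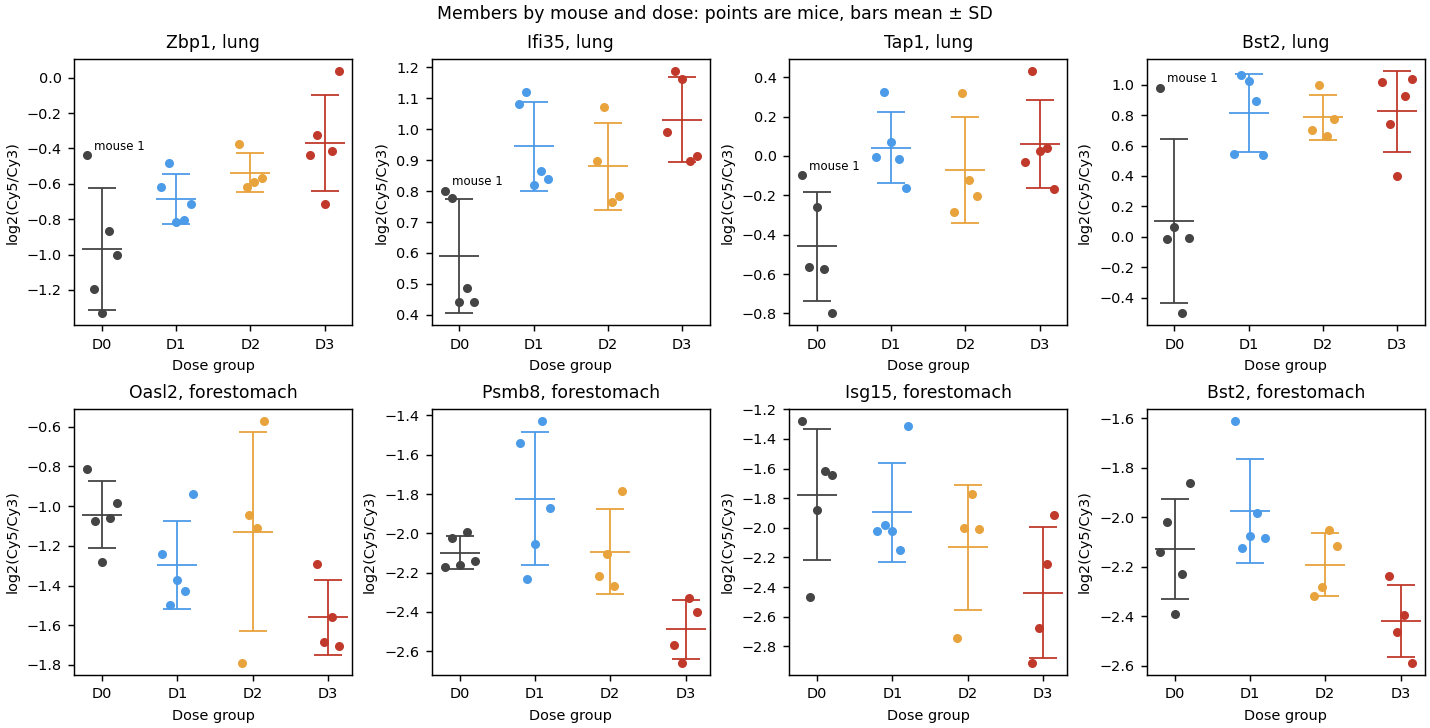
Log2(Cy5/Cy3) per mouse (points) by dose group, with mean ± SD (bars), for the members with the smallest p. In lung, Bst2 D0 mouse 1 at 0.98 sits among the dosed mice while the other D0 mice reach at most 0.06, and the 5 Ifi35 D3 mice all lie above D0.

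No member was called at D1, where 0.14% of all probes were, or at D2, where 0.264% were. At an unadjusted p of 0.05, 6 members were higher and 0 lower at D1 (17.1%, against 6.53% of all probes), and 6 were higher and 1 lower at D2 (20% against 8.07%). The smallest p at D1 belonged to Bst2, Ifi35 (0.36), Tap1 (0.50), Psmb8 (0.40) and Psmb9 (0.44), and at D2 to Bst2, Zbp1 (0.43), Ifi35 (0.29), Tap1 (0.39) and Isg20 (-0.29). The members' median was 0.19 at D1 and 0.11 at D2, with 27 and 28 of 35 above 0. Over the doses, whose comparisons share the same D0 mice, 26 members lay above 0 and 7 below 0 at all 3. The interferon score of the D1 mice ran from 0.07 to 0.43, of the D2 mice from 0.06 to 0.30 and of the D3 mice from 0.00 to 0.35, and all 14 dosed mice lay above 4 of the 5 D0 mice but 0 lay above mouse 1.

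The choice of D0 mice and slide set how many members passed. Without D0 mouse 1, 1, 1 and 4 members were called at D1, D2 and D3 (Bst2 at each dose, and Oas1a, Tap1 and Zbp1 at D3), against 0.147%, 0.26% and 0.645% of all probes. That mouse was picked for its high values of these members, so leaving it out lowers the D0 means of most of them. Calls made without it are not separate support for a change. With the array slide as a block, Bst2 (0.78, adjusted p = 0.0333) and Zbp1 (0.64, adjusted p = 0.00402) were called at D3, against 0.909% of all probes. With both changes, a setting added after the values were seen, 5, 3 and 7 members were called at D1, D2 and D3, against 0.334%, 0.497% and 0.995% of all probes, and these included the GTPases Gbp3 and Igtp. Within the 4 slides that held D0 and D3 lungs, the mean D3 minus D0 difference over the members was 0.51, 0.31, 0.14 and 0.13 on slides 2, 3, 4 and 5. There, 19 members were above D0 on all 4 slides and 1 was below on all 4, against 11.4% and 10.1% of all probes, and slide 5 held mouse 1.

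**Figure D3:**
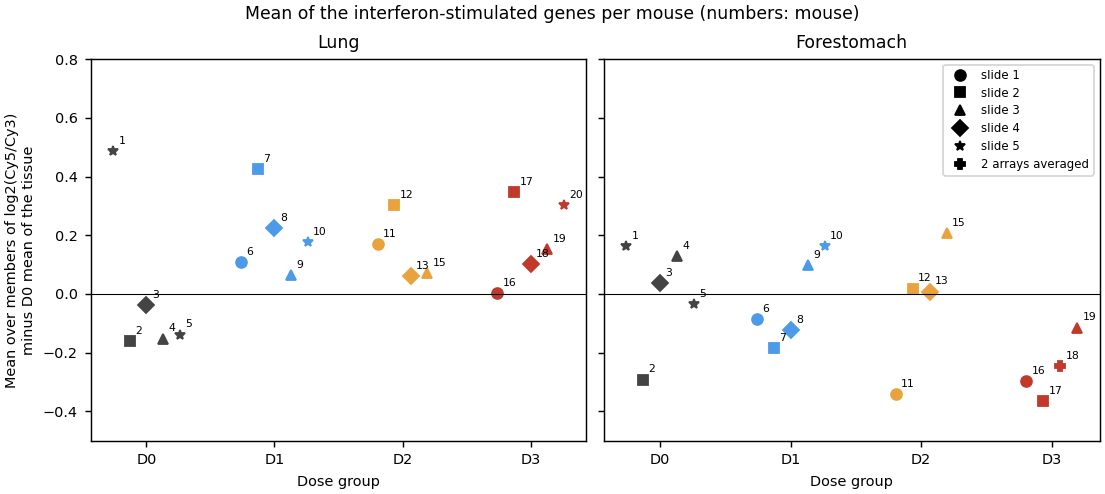
Interferon score, the mean over the 35 members of log2(Cy5/Cy3) minus the D0 mean of the tissue, for each mouse (numbered points, shape by slide) by dose group in lung (left) and forestomach (right). Lung D0 mouse 1 lies at 0.49, above every dosed lung, and the forestomach D3 mice lie between -0.36 and -0.11.

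In forestomach, the tissue that first meets the gavaged compound, no member and none of all probes passed the test at any dose (0% at D1, D2 and D3). The smallest adjusted p of a member was 1 in limma. At an unadjusted p of 0.05, 0 members passed at D1 (4.31% of all probes did), 1 was lower at D2 (2.86% of members, 3.11% of all probes) and 5 were lower at D3 (14.3% of members, 3.56% of all probes), with 0 higher at any dose. Only 2 of 35 D3 estimates, those of Stat2 and Gbp6, lay above 0, and the median was -0.24 against 0.00 over all probes. This direction turned with the scaling: with median centring in place of loess, 34 of 35 lay above 0 with a median of 0.33, while the median over the 15134 probes well above background on all forestomach arrays was itself 0.71.

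Oasl2, an OAS-like protein, had forestomach levels of -0.81, -1.08, -1.28, -1.06 and -0.98 at D0, -1.24, -1.5, -1.37, -1.43 and -0.94 at D1, -1.79, -1.04, -1.11 and -0.57 at D2, and -1.29, -1.69, -1.56 and -1.71 at D3. All 4 D3 mice lay below all 5 D0 mice, the nearest pair at -1.28 and -1.29. The D3 difference was -0.52 (SE 0.18, unadjusted p = 0.0117, limma adjusted p = 1).

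Psmb8 had -2.17, -2.02, -2.16, -1.99 and -2.14 at D0, -1.54, -2.23, -2.05, -1.43 and -1.87 at D1, -2.22, -2.11, -2.27 and -1.79 at D2, and -2.57, -2.66, -2.33 and -2.40 at D3. Here also the D3 mice lay below D0, but the first array numbered 18 read -2.09, within D0, and the second -2.57. The difference was -0.39 (SE 0.14, unadjusted p = 0.015, adjusted p = 1). These 2 of 35 members were the only ones with all D3 mice below D0, against 0.634% of all probes.

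Isg15 had the largest difference of the 5, -0.66 (SE 0.26, unadjusted p = 0.0191). Its levels were -1.28, -2.46, -1.88, -1.61 and -1.64 at D0, -2.02, -1.98, -2.02, -2.15 and -1.31 at D1, -2.74, -2.0, -1.77 and -2.01 at D2, and -2.91, -2.68, -2.25 and -1.91 at D3. D0 mouse 2 lay among the D3 mice. Bst2 had levels of -2.14, -2.02, -2.39, -2.23 and -1.86 at D0 and -2.24, -2.46, -2.40 and -2.59 at D3, with overlap, and the arrays numbered 18 read -2.12 and -2.67. Its difference was -0.29 (SE 0.12, unadjusted p = 0.0257) and that of Oas2 -0.45 (SE 0.20, unadjusted p = 0.0422) at D3, both with an adjusted p of 1 in limma.

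No difference is given for Ifi44 and Cxcl9, which were well above background on 0 of 5 D0 forestomach arrays. The remaining members had D3 differences from -0.51 (Ifit1) to 0.08 (Stat2). By role, the estimates furthest from 0 were -0.47 for the transcription factor Irf7, -0.40 for the sensor Zbp1, -0.38 for the GTPase Gbp2 and -0.44 for the chemokine Cxcl10. Several were dim in this tissue: Cxcl9 was well above background on 1 of 19 arrays, Ifi44 on 2, Dhx58 on 3, Ifit1 and Rsad2 on 4, Tap1 and Irf7 on 6, Ifit2 on 8 and Cxcl10 on 9. At D1 the members with the smallest p were Psmb8 (0.27), Ddx58 (-0.20), Ifit3 (0.24), Oasl2 (-0.25) and Bst2 (0.15). At D2 they were Isg20 (-0.27, unadjusted p = 0.0221), Gbp6 (0.24), Isg15 (-0.36), Zbp1 (-0.27) and Ifit1 (-0.28). The median was -0.02 at both lower doses, with 13 of 35 above 0 at D1 and 17 at D2.

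Lymphocyte markers were measured beside these values. The mean of 6 T cell markers ran from -0.94 to -0.41 at D0 and from -1.03 to -0.73 at D3, and that of 6 B cell markers from -1.12 to -0.63 and from -1.29 to -0.91. Both means reached lower at D3 but the groups overlapped. The mean of 5 endothelial markers ran from 0.80 to 1.43 at D0 and from 0.89 to 1.36 at D3. Within the 13 arrays of high glandular markers, Pearson's r with the members' mean was 0.65 for T cell, 0.66 for B cell, 0.39 for plasmacytoid dendritic cell and -0.70 for endothelial markers. Within the 6 arrays of low glandular markers it was 0.59, 0.30, 0.61 and -0.54 in the same order. The glandular markers themselves had 0.51 within the 13 arrays and -0.05 within the 6. Lung epithelial markers had -0.58 and -0.12. The part of these cells in the members' values was not tested. Within the 4 slides that held D0 and D3 forestomachs, 15 members were below D0 on all 4 and 0 were above on all 4, against 7.24% and 5.48% of all probes, with an array numbered 18 on each of 2 slides.

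Among the members, Oasl1, an OAS-like translation inhibitor of Irf7, was the only 1 of 35 whose forestomach levels did not overlap between the 2 ranges of glandular markers, against 0.771% of all probes. It ran from -2.25 to 1.65 on the 13 arrays with high glandular markers and from -3.46 to -2.65 on the 6 with low ones. Oas1a ran from -2.66 to -0.04 and from -3.14 to -2.63. The spread of Oasl1 among D0 forestomachs was wide (SD 2.22, n = 5). On the high-glandular arrays alone, the members' median D3 difference was -0.26, and with the glandular mean as a covariate it was -0.21.

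**Figure D4:**
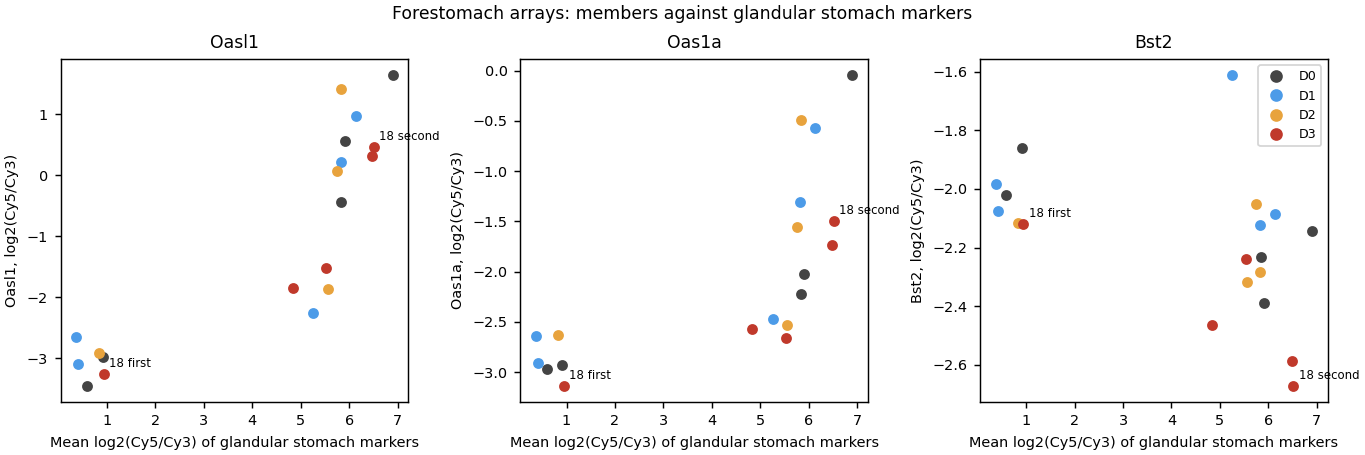
Forestomach log2(Cy5/Cy3) of Oasl1, Oas1a and Bst2 (y axes) against the mean log2(Cy5/Cy3) of 9 glandular stomach markers (x axes), 1 point per array, coloured by dose group. Oasl1 on the 6 arrays with low glandular markers lies below every array with high ones.

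Whether the response differed between tissues was tested as the lung D3 minus D0 difference less the forestomach one. None of the 35 members passed, against 0.172% of all probes. An unadjusted p under 0.05 was found for 10, all more positive in lung (28.6% of members, against 5% of all probes). As members vary together among the same mice, these are not 10 separate observations. Of the 35 estimates 30 lay above 0, with a median of 0.44 (0.21 and 25 above 0 with median centring). Bst2 had the smallest p, with 1.01 (SE 0.25, limma adjusted p = 0.101), followed by Dhx58 at 0.73 (adjusted p = 0.243) and Zbp1 at 1.00 (adjusted p = 0.251). Tap1 had 0.65 (adjusted p = 0.445), Psmb8 0.59 (adjusted p = 0.521) and Oas2 0.99 (adjusted p = 0.554). With the mouse as a block, since each animal gave both tissues, Bst2 had 0.96 (adjusted p = 0.222). Without lung D0 mouse 1 it had 1.23 and passed (adjusted p = 0.00159, and up to 0.227 without 1 other mouse), and it also passed without lung D3 mouse 18. At D3 with loess, 26 members had a positive estimate in lung and a negative one in forestomach. The share of all probes with this pattern was not computed. It also depended on the scaling: with median centring, 34 of 35 members lay above 0 in lung and 34 of 35 in forestomach.

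**Figure D5:**
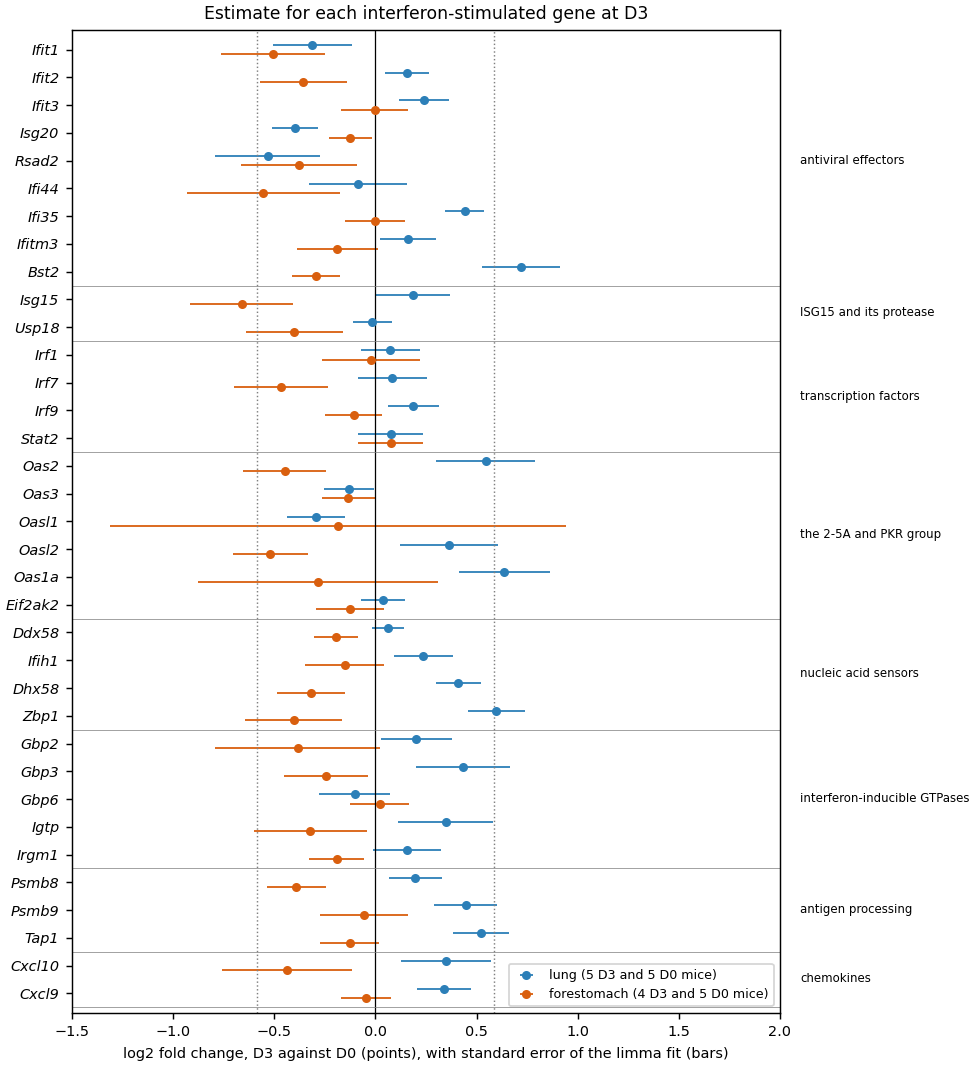
Log2 fold change of each member at D3 against D0 (points) with the standard error of the limma fit (bars), in lung and forestomach; dotted lines mark a 1.5-fold change. No D0 array was well above background for Cxcl9 in either tissue or for Ifi44 in forestomach, so those points are not measured differences. Zbp1 is the only member called in lung (0.60), and the forestomach points lie mostly left of 0.

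The undosed tissues differed widely in these genes. In D0 lung against D0 forestomach, 23 of 35 members were called higher in lung and 0 higher in forestomach, where 8.62% and 7.6% of all probes were (16.2% in either direction), and the members' median log2 difference was 1.06 against -0.01 over all probes. The largest was that of Irf1, the factor that relays interferon gamma signals, at 2.80. Its lung levels were 1.88, 1.91, 1.55, 1.46 and 1.72 and its forestomach levels -0.75, -1.30, -1.10, -1.26 and -1.08 in D0 mice 1 to 5, with no overlap. Psmb8 followed at 2.54 (adjusted p = 1.45e-16 in limma), from 0.22 to 0.86 in lung and from -2.17 to -1.99 in forestomach. Ifit3 (2.25), Bst2 (2.23), Psmb9 (2.19) and Usp18 (1.84) came next. Immune and endothelial markers differed too, with D0 lung above D0 forestomach. Macrophage means ran from 1.70 to 2.64 in lung and from -0.42 to 0.16 in forestomach. In the same order, T cell means ran from 0.12 to 0.47 and from -0.94 to -0.41. Endothelial means ran from 3.74 to 4.38 and from 0.80 to 1.43. The B cell, NK cell, neutrophil and plasmacytoid dendritic cell means did not overlap either. The part of cell content in the members' differences was not tested.

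By role, all 5 GTPases were higher in D0 lung (Igtp 1.34, Irgm1 1.32, Gbp3 1.25, Gbp6 0.95, Gbp2 0.91), as were Isg15 (1.30) and its protease. Of the 9 antiviral effectors with a probe 8 were called, among them Ifitm3 (1.46), Ifit1 (1.33), Isg20 (1.10), Rsad2 (1.06), Ifi35 (1.05) and Ifit2 (0.60). The ninth, Ifi44, was not called (limma adjusted p = 0.0519). It was well above background on 0 of 5 D0 forestomach arrays, so no fold is given. Of the transcription factors, Irf9 (1.11) and Stat2 (0.76) were higher beside Irf1, while Irf7 had -0.17. Both cytosolic RNA sensors Ifih1 (1.34) and Ddx58 (1.31) were higher. Dhx58 (0.57, adjusted p = 0.00186) missed the fold threshold, and Zbp1 had 0.32. The second probes of Isg20 (1.61), Ddx58 (0.88) and Irgm1 (0.65) were also called. Those of Isg15 (0.45, limma adjusted p = 0.11) and Gbp6 (0.44, limma adjusted p = 0.123) were not, so these 2 calls rested on the brighter probe. The second probes of Irf1 (0.16) and Ifih1 (0.21), well above background on 0 and 5 lung arrays, were not called either.

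In the 2-5A and PKR group 1 of 6 was called. Oasl2 had 1.14, while Oas1a (0.03), Oas2 (0.47), Oas3 (-0.28), Oasl1 (-1.73, adjusted p = 0.0969) and Eif2ak2 (0.42, adjusted p = 0.0203) were not. Neither chemokine was called (Cxcl10 -0.35). In antigen processing, Tap1 had 0.37 and was not called. For Ifit1, Ifit2 and Rsad2 only 1 of the 5 D0 forestomach arrays was well above background, so those differences rest on dim spots.

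Of the genes upstream in the pathway, 4 of 6 receptor chains were higher in D0 lung (Ifnar2 1.74, Ifngr1 1.52, Ifngr2 1.15 and Ifnar1 1.04), as were 3 of 8 kinases and factors (Irf8 2.28, Irf2 1.17 and Jak1 1.13). Among the ligands, 1 of 8 was called, Ifnl3 of the lambda interferons, lower in lung at -1.31. Of 46 other interferon-induced genes, 31 were higher in lung. The adaptors and sensors had 2 higher and 1 lower of 10, and the inhibitors 2 higher of 5.

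None of these 37 pathway genes or 46 other interferon-induced genes was called at any dose in either tissue. In lung at D3, 0 of the 37 pathway genes were higher and 5 lower at an unadjusted p of 0.05. Of the 46 other induced genes, 4 were higher and 1 lower. Both counts lie near the share of all probes at this threshold, 11.3% in either direction. The GTPase gene Gbp4 had estimates of 1.06, 0.88 and 0.98 at D1, D2 and D3 (adjusted p = 0.18, 0.298 and 0.0787 in limma), larger than any member's. Its relatives Gbp5 and Gbp7 had 0.64 and 0.73 at D1, and Ifi27l2a had 0.64 at D2 and 0.79 at D3. In forestomach at D3, 13 of the 46 other induced genes lay above 0, and Rtp4 had -0.61.

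Over 19 lungs on 5 slides, the median Pearson correlation of the 595 pairs of members was 0.42 and 83.4% of the pairs were above 0, against 0.01 and 51.3% over pairs of all genes, dim ones included. After subtracting dose means the members' median was 0.41. In forestomach the median was 0.22 within the 13 arrays of high glandular markers (67.2% of pairs above 0, against 50.2% over all genes) and 0.36 within the 6 of low ones (70.6% against 50.6%). In lung, Oasl2 (0.94), Gbp3 (0.93), Irgm1 (0.86) and Igtp (0.86) followed the mean of the other members most closely. Oas3 (-0.31), Isg20 (-0.25) and Rsad2 (-0.11) ran against it there. In forestomach the closest was Oas2 (0.92), and Oas3 (0.66) and Rsad2 (0.77) ran with the mean. These values describe mice that share slides and a dye orientation. Across the 18 mice measured in both tissues, the lung and forestomach scores had a Pearson r of -0.04 and a Spearman rho of -0.06, and -0.18 and -0.20 without mice 1 and 7, the pair furthest from the median lung score. With median centring the same r was 0.92 and with the scanner software's ratios 0.30, so this value depends on the scaling.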

How the data were processed

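Total RNA was measured on 38 dual-colour arrays. The authors deposited scanner files with Cy5 and Cy3 median signal intensity per spot, with local background and outlier flags, and a log10 ratio of red over green computed by the scanner software. They also deposited a series table of normalised log2 ratios. Here log2(Cy5/Cy3) of the median intensities of 59305 non-control spots was loess-normalised within arrays, with no background subtraction. Values flagged as outliers were left out, and spots of a probe were averaged to 55681 probes. The flags left 372 probe values empty. No spot was saturated. There was no dye swap, so a dye effect is shared by both tissues and all doses. Fits used limma 3.58.1 in R 4.3.3, tables were handled in data.table (version 1.17.8), and there was 1 fit per tissue over all dose groups and 1 over both tissues for comparisons between them. The study used LOWESS and MAANOVA, for which loess and limma stand in, and calls kept its thresholds. The code was tested on simulated data.

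The members and the lists of pathway genes, other induced genes and markers were chosen with earlier results of these data known. Named with values were members called in a comparison, otherwise those with the 5 smallest p, the furthest estimate of each role, and full per-mouse values for the member called at a dose and the 3 with the smallest p at D3 in each tissue. Further per-mouse values, such as those of Bst2, Oas1a and Irf1, were added after their values were seen. Mouse numbers in the labels pair lung with forestomach of the same animal, and the blocked fits used them. The number of arrays limits the precision. Alternatives covered normalisation, background correction, dim probes, the choice of probe, blocks, thresholds, the arrays numbered 18, glandular content and each mouse left out. RefSeq promoter windows were matched by symbol.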

Additional observations from a re-analysis of the deposited data

Results flagged for a closer look

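A sample far from the rest of its group was looked for in 56 groups, of which chance would mark about 1 in 20, and 4 were found. The lung interferon score of D0 mouse 1 was 0.488, with the nearest D0 mouse at -0.04. In forestomach, the Zbp1 level of D0 mouse 2 was -1.97, with the nearest at -1.25. The forestomach Ifi35 level of D2 mouse 13 was -0.63, with the nearest at -0.25. The forestomach Isg15 level of D1 mouse 10 was -1.31, with the nearest at -1.98.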

How the results depend on the processing

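Median centring without loess moved the members' median to 0.52 (D1), 0.54 (D2) and 0.56 (D3) in lung, to 0.51 (D2) and 0.33 (D3) in forestomach, to 0.21 for the difference between tissue responses and to 1.49 between the undosed tissues (1.55 with the scanner software's log ratio). Under it, the median over probes well above background on all arrays was itself 0.32, 0.39 and 0.35 in lung and 0.23, 0.63 and 0.71 in forestomach. Mean scores under it were 0.49, 0.53 and 0.52 in lung and 0.16, 0.49 and 0.35 in forestomach, and the lung to forestomach r was 0.92 (0.30 with the scanner software's ratio). It also turned the sign of Isg20 in lung at D2 (0.26) and, in forestomach, of Ddx58 at D1 (0.026), of Isg20 (0.48), Isg15 (0.36), Zbp1 (0.20) and Ifit1 (0.16) at D2, and of Oasl2 (0.20), Psmb8 (0.37), Isg15 (0.14), Bst2 (0.50) and Oas2 (0.29) at D3. The cause was not tested.

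The count of members called in lung at D3 was 0 with median centring, the scanner software's ratio, the authors' series table, the mean of all probes of a gene, or only D0 and D3 in the fit. It was 2 with slide or scan day as a block or with no fold threshold. With D0 mouse 1 left out and slide as a block, chosen after seeing the data, the counts were 5, 3 and 7 at D1, D2 and D3. The difference between tissue responses had 1 call, Bst2, with the authors' series table. When each mouse was left out in turn, lung calls ranged from 0 to 1 (D1), 0 to 1 (D2) and 0 to 4 (D3), with 0 to 1 for the difference between tissue responses and 22 to 25 between undosed tissues. The highest counts at the doses came without D0 mouse 1. With mouse number as a replicate block, no member was called in the difference between tissue responses, with Bst2 at 0.96 (adjusted p = 0.222) as a fixed block and 1.01 (adjusted p = 0.0524) as a random block in limma. The quantile alternative leaves log ratios as they are by construction. In forestomach, members near background have imprecise differences.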

Other observations

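The genes outside the lists above whose lung levels most resembled the mean of the members were, by Pearson correlation over 19 lungs, H2-K1 (0.90), H2-D1 (0.90), H2-K2 (0.88), Gm4951 (0.84), Pttg1ip (0.84), Etv1 (0.83), H2-Q7 (0.83), Zfp78 (0.83), LOC547349 (0.82) and H2-T23 (0.82). The H2 genes encode MHC class I chains and related proteins. They are near-identical copies whose probes can share signal, so they are not separate observations. No such ranking is given for forestomach, whose arrays fall into 2 ranges of glandular markers.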
